A study of Mus musculus with 46 samples.

Results

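The set described here is 31 genes of macrophages and other immune cells, taken by symbol from gene tables of whole embryonic mouse gonads, and all 31 were among the 33331 gene rows. The rule was the list of symbols itself and used no measured value. It spans the myeloid lineage factor and growth factor axis (Spi1, Csf1r and Csf1), 9 pan-macrophage or leukocyte surface genes, 5 Fc receptor and adaptor genes, the 3 C1q subunits, 6 scavenger or tissue-resident markers, 3 lysosomal or effector genes and 2 granulocyte peroxidases. Gonad pairs were taken at E12.5, shortly after sex is determined, from XX and XY embryos that were wild type (WT) or carried a change in Enh13, a remote enhancer of the testis-determining gene Sox9. The changes were 1bp-ins and 3bp-del, each heterozygous (het) or homozygous (hom), and 3bp-12bp-del, homozygous, whose make-up the labels do not spell out. WT and het groups had 3 libraries each, homozygous groups 5, except XY 3bp-12bp-del-hom with 3, which gave 46 libraries in 12 groups. No transgene, Cre or drug is named in the labels. Whether the libraries of a group came from different litters is not stated, so the p-values measure only the spread between these libraries.

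Macrophages are the main leukocytes of the fetal gonad. Early ones come from the yolk sac and later ones from fetal liver monocytes, and both depend on the receptor Csf1r and its ligands Csf1 and Il34. In the fetal testis they engulf misplaced cells and take part in shaping the vessels that partition the cords. Eosinophils and neutrophils are rarer and store the peroxidases Epx and Mpo in their granules. In whole gonads, fewer cells of a type and less RNA per cell cannot be told apart.

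Libraries held between 29909111 and 46150400 estimated counts, of which the 31 genes together took 3601 to 13251. Sox9, the gene under Enh13, was at 7.84 to 12.1 CPM in XX WT, at 136 to 266 CPM (counts scaled to library size with TMM factors) across the 3 homozygous XX groups and at 84.0 to 323 CPM in all XY libraries. The gonad markers Nr5a1, Gata4 and Wt1 were present in every library. 4 libraries were high in markers of tissue next to the gonad. Replicate 3 of XY WT had a summed level of 220 CPM over 7 mesonephros genes, against 13.1 and 21.0 CPM in the other libraries of its group. Replicate 4 of XX 3bp-del-hom was at 122 CPM on the same list. Replicate 1 of XX WT had 182 CPM over 6 adrenal and chromaffin genes, against 5.10 and 4.26 CPM beside it, and replicate 1 of XY 3bp-del-het had 67.7 CPM. Both WT libraries were also the highest of their groups in macrophage genes, so the results that rest on them are given with and without them.

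On the TPM scale, which divides by transcript length and so allows genes to be compared, these were low-abundance transcripts. The highest mean over all libraries was 33.9 TPM for Pf4, a chemokine of platelets that fetal macrophages also make. Stab1, a scavenger receptor of macrophages and endothelium, followed with 19.1 TPM, then the lysozyme gene Lyz2 with 14.0, the complement subunit gene C1qb with 12.8 and the lysosomal membrane gene Laptm5 with 11.4 TPM. C1qa and C1qc lay close to C1qb at 10.4 and 10.6 TPM, and the adaptors Tyrobp and Fcer1g were at 10.2 and 9.69 TPM. Csf1r had a mean of 6.75 TPM, against 2.68 TPM for its ligand Csf1. Adgre1, which encodes the macrophage antigen F4/80, was at 2.43 TPM, and the leukocyte phosphatase gene Ptprc and the integrin gene Itgam were at 0.742 and 0.780 TPM. At the low end stood Lyve1 (0.449 TPM), the monocyte receptor gene Cd14 (0.397 TPM), the phosphatidylserine receptor gene Timd4 (0.108 TPM) and the haemoglobin scavenger gene Cd163 (0.0261 TPM). Cd163 had no count in 13 libraries and Timd4 none in 3. A count of 0 allows up to 3 counts, which is 0.065 to 0.1 CPM at these depths by counting error alone, and Cd163 reached at most 0.306 CPM.

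Most of the set moved together from library to library. For a description, each gene's log2 CPM was taken as a deviation from its group mean and set against the mean deviation of 18 core macrophage genes (its own value left out), over 46 libraries, so that the genes share each library's depth and dissection. Over the core genes r ran from 0.496 for Csf1r to 0.914 for Cx3cr1, the fractalkine receptor gene, with a median of 0.796. Laptm5 (0.911), C1qc (0.883), Spi1 (0.876), which encodes the myeloid transcription factor PU.1, and C1qb (0.872) were close behind. Stab1 (0.704) and Lyve1 (0.614), both also made by endothelium, and Pf4 (0.608) followed the core less closely. Csf1, made by stromal cells, was at 0.585 and Mpo at 0.53. Epx was at 0.065, and at 0.259 over the 42 libraries left without the 4 high in neighbouring tissue. Of 13683 genes, the 8 outside the set most like the core were Nfam1 (0.910), Cyth4 (0.909), Coro1a (0.901), Myo1f (0.895), Nr2f1 (0.895), Alx1 (0.883), Ighm (0.876) and Efna3 (0.876). Nfam1, Cyth4, Coro1a and Myo1f are leukocyte genes, and Nr2f1 and Alx1 encode transcription factors of mesenchyme and other non-blood tissue. Without the 4 libraries high in neighbouring tissue, over 42 libraries, Coro1a (0.933), Nfam1 (0.891) and Cyth4 (0.887) led, with Alx1 at 0.879 and Nr2f1 at 0.862.

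The promoters of the set can be read for the core of the PU.1 recognition sequence, GAGGAA, called the PU box. RefSeq promoters (build GRCm38.p6, the assembly of mm10) were available for 24 of the 31 genes and were searched over the 250 bases before the start site. At least 1 match on either strand was present for 16 of the 24 genes (66.7%), against 23.3% of all 32851 promoters in the table (a gene can have several promoters). A match is a description of letters and not a bound site. The core genes Cx3cr1, Fcer1g and Mpeg1 had no match, and neither had Lyz2, Csf1, Cd163, Timd4 or Epx. The granulocyte gene Mpo had 2 matches. The genes printed below were chosen by their expression results, and a link between matches and expression was not tested. The promoters below are printed 5′ to 3′ on the strand of the gene, with PU box matches on either strand in capitals, for 2 C1q subunits that moved closely with the core genes, for the 2 scavenger receptors that fell most often in XX mutants and for Epx, which followed another pattern. The 3 C1q genes lie side by side on the minus strand of chromosome 4 between 136880129 and 136898803, and no C1qa promoter is in the table. C1qb (chr4:136886201-136886450, minus strand) held 1 match, C1qc (chr4:136892915-136893164, minus strand) 1, Mrc1 (chr2:14229164-14229413, plus strand) 3, Stab1 (chr14:31168642-31168891, minus strand) 1 and Epx (chr11:87875537-87875786, minus strand) none. The Epx window held a TATAAA, a sequence in 12.4% of all promoters on either strand.
C1qb: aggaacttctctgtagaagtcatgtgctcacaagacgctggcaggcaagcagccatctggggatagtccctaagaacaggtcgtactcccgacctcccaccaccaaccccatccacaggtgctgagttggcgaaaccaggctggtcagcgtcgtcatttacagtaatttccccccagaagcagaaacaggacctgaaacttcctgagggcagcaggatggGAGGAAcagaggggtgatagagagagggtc
C1qc: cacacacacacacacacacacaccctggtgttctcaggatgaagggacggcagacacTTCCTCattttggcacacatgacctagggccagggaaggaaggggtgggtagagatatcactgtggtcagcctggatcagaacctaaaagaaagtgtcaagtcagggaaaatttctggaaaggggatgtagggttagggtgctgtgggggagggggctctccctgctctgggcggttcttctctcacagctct
Mrc1: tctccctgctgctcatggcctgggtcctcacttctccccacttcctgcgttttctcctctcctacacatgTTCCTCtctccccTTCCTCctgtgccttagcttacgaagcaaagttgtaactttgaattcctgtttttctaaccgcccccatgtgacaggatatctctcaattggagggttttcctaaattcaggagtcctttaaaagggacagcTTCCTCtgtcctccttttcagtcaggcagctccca
Stab1: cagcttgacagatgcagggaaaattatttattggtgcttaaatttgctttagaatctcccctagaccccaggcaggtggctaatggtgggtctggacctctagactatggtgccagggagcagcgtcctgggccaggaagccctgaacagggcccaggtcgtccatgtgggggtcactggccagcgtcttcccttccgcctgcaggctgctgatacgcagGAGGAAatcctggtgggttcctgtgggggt
Epx: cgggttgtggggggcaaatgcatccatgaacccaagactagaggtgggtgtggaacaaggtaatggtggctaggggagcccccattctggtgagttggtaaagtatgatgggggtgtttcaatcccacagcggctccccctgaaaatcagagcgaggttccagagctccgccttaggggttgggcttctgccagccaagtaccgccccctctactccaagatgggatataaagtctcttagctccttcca
The match nearest the start was 30 bases before it in C1qb and in Stab1, 35 bases before it in Mrc1 and 193 bases before it in C1qc.

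The first question was whether gonads of the 2 sexes differ in these genes. In the 1bp-ins-het gonads they did, in 1 direction: 25 of the 28 members tested were lower in XY than in XX, at an adjusted p under 0.05 (edgeR's quasi-likelihood test, Benjamini-Hochberg over all genes), and none was higher. Of all genes tested there, 39.2% were called in either direction, 20.2% lower and 18.9% higher in XY. The median member difference was -0.94 on the log2 scale against -0.01 over all genes. In the summed level of the 18 core genes, XX 1bp-ins-het libraries were at 130 to 157 CPM and XY 1bp-ins-het libraries at 71.5 to 87.7 CPM, so the groups did not overlap.

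**Figure D1:**
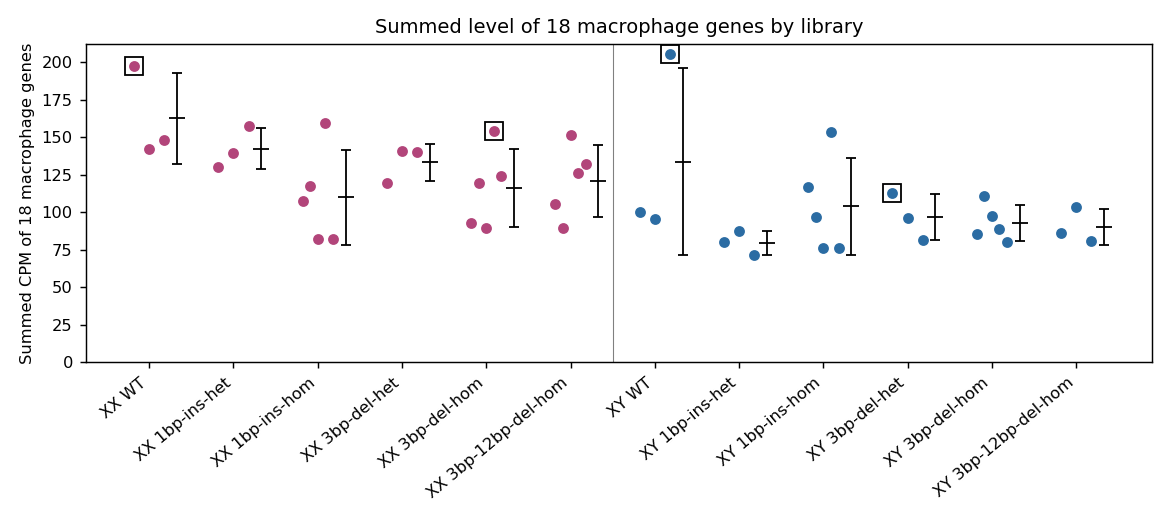
Summed CPM of 18 core macrophage genes (y axis) in each of the 46 libraries, by sex and genotype (x axis). Points are libraries, bars the mean and SD, and squares mark the 4 libraries high in mesonephros or adrenal genes. XY WT replicate 3 (206 CPM) and XX WT replicate 1 (198 CPM) were the highest of all libraries.

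By role, all 3 genes of the lineage and CSF1 axis were lower in XY 1bp-ins-het. Spi1 was at 2.80, 3.18 and 3.85 CPM in XX and at 1.11, 1.51 and 1.55 CPM in XY, with no overlap (log2 fold change -1.25 ± 0.23 (SE), adjusted p = 0.00206). Csf1r was at 19.4, 23.3 and 28.0 CPM in XX and at 13.4, 15.6 and 12.3 CPM in XY (log2 fold change -0.78 ± 0.14 (SE), adjusted p = 0.00239), and Csf1 differed by -0.83. Again every XX library lay above every XY library. In this comparison 52.7% of all genes did not overlap, and XY lay wholly below XX in 26.1%. Of the 28 members tested, 25 did not overlap. Of the surface genes 7 of 8 tested were lower, led by Aif1 (-1.26), a marker of macrophages and microglia, and Adgre1 (-1.13). Adgre1 was at 4.45, 4.98 and 5.84 CPM in XX and at 2.85, 2.86 and 1.28 CPM in XY. Ptprc was the surface gene that was tested and not called. All 5 Fc receptor and adaptor genes were lower, with Tyrobp, the signalling adaptor of myeloid receptors, at -1.13 and Fcer1g, the Fc receptor gamma chain, at -1.09. The Trem2 call was lost in 6 of 12 alternative settings and that of Fcgr3 in 3. All 3 C1q subunits were lower, which together form the recognition molecule of the classical complement pathway. C1qa was at 6.57, 8.02 and 6.49 CPM in XX and at 4.54, 4.46 and 3.62 CPM in XY (log2 fold change -0.75 ± 0.16 (SE), adjusted p = 0.00484), and C1qb and C1qc differed by -0.87 and -0.94.

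Among the scavenger genes, Mrc1, the mannose receptor gene, was at 11.99, 17.6 and 18.8 CPM in XX 1bp-ins-het and at 8.76, 8.23 and 7.74 CPM in XY (log2 fold change -0.98 ± 0.16 (SE), adjusted p = 0.00144). Pf4 was lower by a smaller amount (-0.65, a call lost in 4 of 12 settings), while Stab1 (-0.68, adjusted p = 0.0695) and Lyve1 (-1.62, adjusted p = 0.12) were not called. All 3 lysosomal and effector genes were lower, and Lyz2 differed most, at 16.5, 21.5 and 12.98 CPM in XX and 5.00, 4.59 and 4.81 CPM in XY (log2 fold change -1.83 ± 0.18 (SE), adjusted p = 5.76e-05). Lyz2 has a near-identical neighbour, Lyz1, and Fcgr3 belongs to a family of similar receptors, so how the authors' counting split their reads is uncertain. Other markers moved beside this difference. Of 35 other macrophage genes tested 15 were lower and 2 higher in XY, and 4 of 8 megakaryocyte and platelet genes were lower, among them Ppbp (-0.82). The 10 erythroid genes had 0 calls by edgeR but all lay above 0, with a median of 0.44, and 3 of 4 mesonephros genes tested were lower. Their part in the result was not tested.

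In the 3bp-del-het gonads the same comparison called 4 of 29 members, all lower in XY, where 29.6% of all genes were called and 13.8% were lower. The 4 were Epx, Lyz2 (-1.33), Csf1r (-0.91) and C1qc (-0.78), and 27 of 29 members lay below 0 with a median of -0.51. Over all genes 49.9% lay below 0, with a median of 0.0. Csf1r was at 16.4, 23.5 and 22.8 CPM in XX 3bp-del-het and at 10.8, 7.38 and 14.8 CPM in XY 3bp-del-het, without overlap. The same was true of 45.7% of all genes and of 13 of 29 members. Without replicate 2 or replicate 3 of XX 3bp-del-het 2 members were called, with 24.1% and 21.1% of all genes called. The C1qc call was lost in 6 of 13 alternative settings and the Csf1r call in 4. In this pair of groups 5 of 7 granulocyte and mast cell genes outside the set were also lower in XY, among them Ngp (-3.04) and S100a8 (-2.65), genes of maturing neutrophils, and 6 of 7 mesonephros genes were lower. Without replicate 1 of XY 3bp-del-het, the library high in adrenal genes, 5 members were called, with 24.3% of all genes called.

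In WT gonads 1 of 28 members differed, Epx, and 11% of all genes were called (5.94% lower in XY). This count turned on replicate 3 of XY WT. Csf1r was at 32.95, 23.0 and 24.8 CPM in XX WT and at 16.6, 15.97 and 36.1 CPM in XY WT, and Mrc1 was at 20.4, 19.4 and 17.2 CPM in XX WT and at 10.4, 7.46 and 25.9 CPM in XY WT. In both genes replicate 3 lay above every XX WT library and the other 2 XY WT libraries lay below every one of them. Adgre1 was at 11.9, 6.60 and 7.65 CPM in XX WT and 3.96, 3.27 and 9.81 CPM in XY WT, and Stab1 at 78.1, 65.9 and 58.4 CPM and 28.3, 24.7 and 85.1 CPM. Without replicate 3 of XY WT, 17 of 28 members were lower in XY, with 43.3% of all genes called and 21.8% lower, and the median moved from -0.35 to -0.77. That fit rests on 2 XY WT libraries and leaves out the one with the highest core sum, so some shift down in XY follows from the choice. Stab1 then differed by -1.35 ± 0.14 (adjusted p = 0.000392), Mrc1 by -1.09 ± 0.16 (0.00127), Adgre1 by -1.27 ± 0.28 (0.00827) and Csf1r by -0.73 ± 0.16 (0.00985, edgeR). Spi1, Laptm5, the adaptor genes and C1qa were not called then, and 11 members in all were not. Without all libraries high in neighbouring tissue the count was 15, with 43.4% of all genes called.

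Comparisons of the sexes within homozygotes were added after values had been seen. They called 1 of 29 members in 1bp-ins-hom (9.94% of all genes), 6 of 29 in 3bp-del-hom (31.8%) and 2 of 29 in 3bp-12bp-del-hom (10.4%), all lower in XY. In 3bp-del-hom the 6 were Epx, Lyz2 (-1.28), Spi1 (-0.97), Aif1 (-0.96), Fcer1g (-0.86) and Tyrobp (-0.69). Spi1 was at 2.33, 3.38, 1.89, 5.00 and 3.35 CPM in XX 3bp-del-hom and at 1.32, 1.83, 1.70, 1.68 and 1.78 CPM in XY 3bp-del-hom, with no overlap. In that comparison 23.5% of all genes and 3 of 29 members did not overlap. The Tyrobp call was lost in 13 of 17 alternative settings and that of Lyz2 in 9. In 3bp-12bp-del-hom Mpeg1, which encodes the macrophage pore protein perforin-2, was lower (-0.56) beside Epx, a call lost in 9 of 14 alternative settings.

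**Figure D2:**
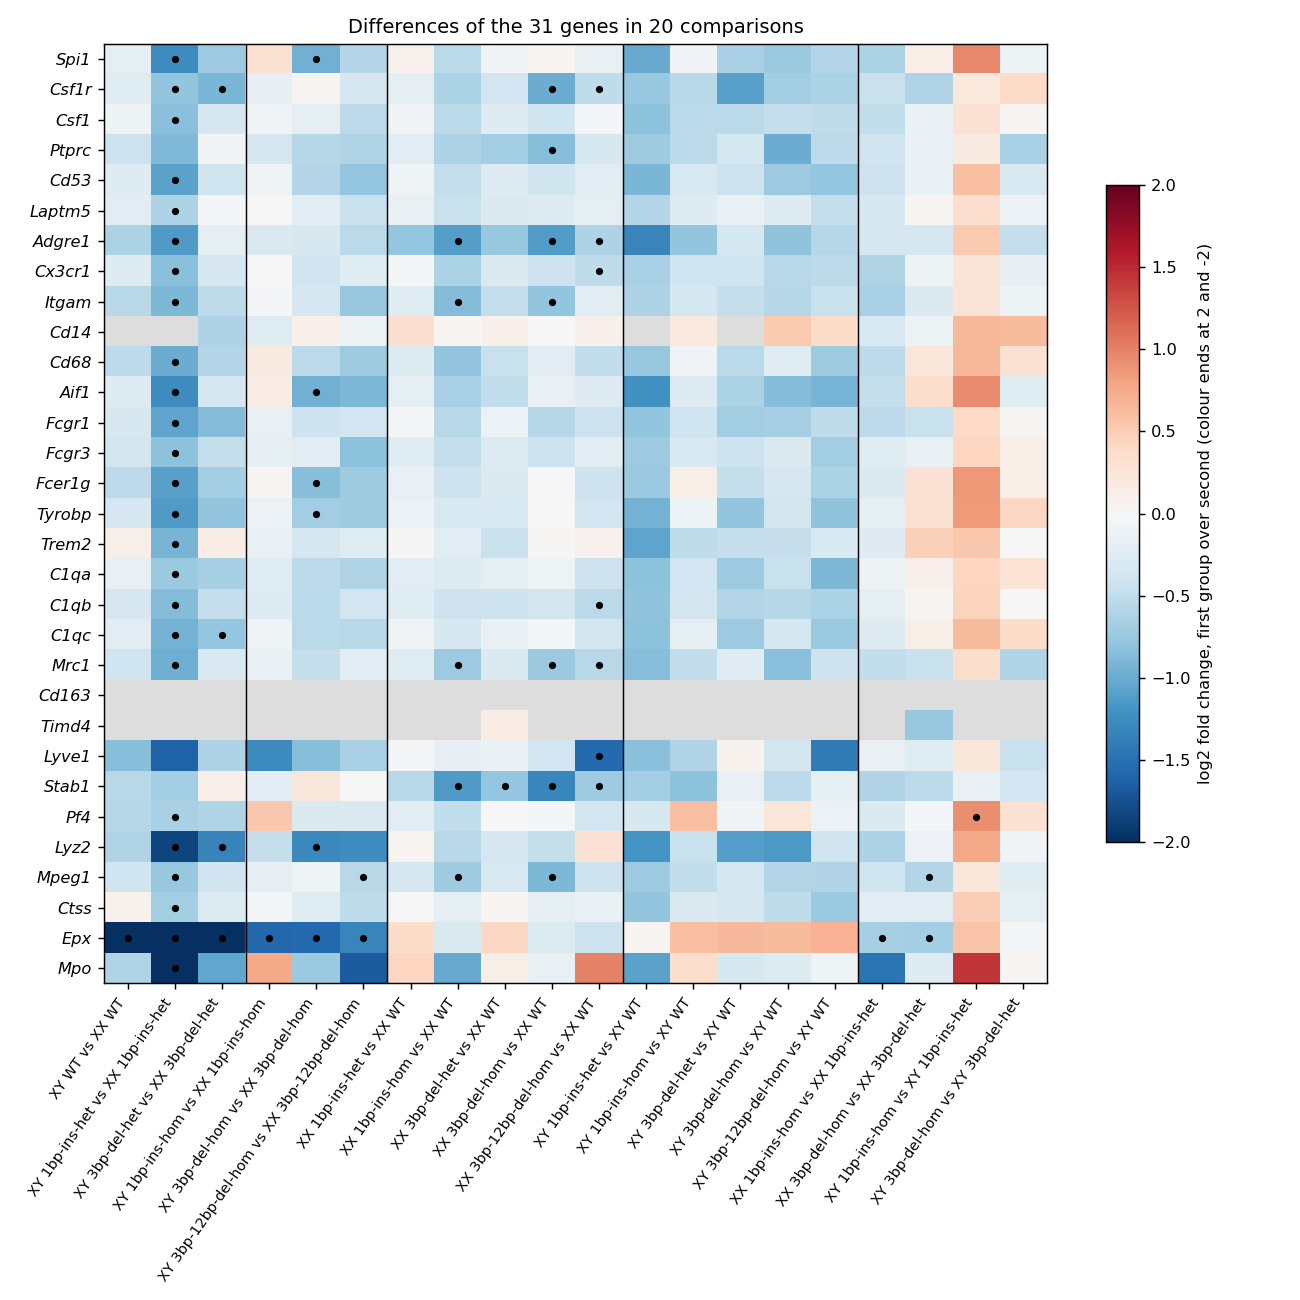
Log2 fold changes of the 31 genes (rows) in 20 comparisons (columns), first group over second, by edgeR. Blue is lower and red higher, a black dot marks an adjusted p under 0.05, and grey cells did not pass the filter on low counts. The column with the most dots is XY against XX in 1bp-ins-het (25), and Epx has a dot in all 6 comparisons of XY with XX.

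Epx, the eosinophil peroxidase gene, was the 1 member in which the sexes did not overlap over all libraries. All 24 XX libraries (3.78 to 10.8 CPM, median 6.36) lay above all 22 XY libraries (0.813 to 3.32 CPM, median 1.84). The share of all genes that separate the sexes over all libraries is not given here, so this separation has no background. In WT Epx was at 4.94, 7.09 and 9.02 CPM in XX and at 1.63, 1.21 and 0.975 CPM in XY (log2 fold change -2.46 ± 0.31 (SE), adjusted p = 0.00416). In 1bp-ins-het the levels were 10.8, 7.85 and 8.45 CPM in XX and 1.24, 0.848 and 1.91 CPM in XY (log2 fold change -2.77 ± 0.27 (SE), adjusted p = 5.77e-05). In 3bp-del-het they were 10.5, 8.41 and 9.47 CPM and 2.41, 1.86 and 1.83 CPM (log2 fold change -2.20 ± 0.18 (SE), adjusted p = 5.06e-05). XX was higher in every pair of libraries.

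Within homozygotes the sex difference of Epx was -1.56 ± 0.16 in 1bp-ins-hom, -1.56 ± 0.30 in 3bp-del-hom and -1.32 ± 0.29 in 3bp-12bp-del-hom. Its levels were 4.97, 6.14, 4.71, 7.16 and 5.22 CPM in XX 1bp-ins-hom and 2.24, 1.75, 1.64, 1.86 and 2.24 CPM in XY 1bp-ins-hom. In 3bp-del-hom they were 5.60, 6.58, 6.77, 4.68 and 5.34 CPM in XX and 0.813, 1.42, 1.99, 3.32 and 2.44 CPM in XY, and in 3bp-12bp-del-hom 4.13, 3.78, 8.31, 4.84 and 4.61 CPM in XX and 2.17, 2.62 and 1.48 CPM in XY. The XX and XY groups thus did not overlap in any genotype. Of all genes 32.8%, 52.7% and 45.7% did not overlap between the sexes in WT, 1bp-ins-het and 3bp-del-het. In 1bp-ins-hom, 3bp-del-hom and 3bp-12bp-del-hom the shares were 9.26%, 23.5% and 20.6%. The Epx calls in WT, both hets, 1bp-ins-hom and 3bp-del-hom held in every alternative setting run, and that in 3bp-12bp-del-hom was lost in 3 of 14 (highest adjusted p = 0.147). Against XX WT, Epx did not pass the test in any homozygous XX group (-0.29 in 1bp-ins-hom, -0.28 in 3bp-del-hom and -0.43 in 3bp-12bp-del-hom), and no XY group passed against XY WT (0.04 to 0.69). Against the het of the same mutation it fell in XX 1bp-ins-hom (log2 fold change -0.67 ± 0.17 (SE), adjusted p = 0.0283) and in XX 3bp-del-hom (log2 fold change -0.68 ± 0.14 (SE), adjusted p = 0.00511), where 17.3% and 27.1% of all genes were called (8.49% higher and 8.76% lower in the first). The first of these calls was lost in 7 of 14 alternative settings and the second in 1 of 15. The difference between the XX and XY effects of each homozygous genotype was -0.90, -0.89 and -1.11, with adjusted p of 0.248, 0.265 and 0.291, and was not called.

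**Figure D3:**
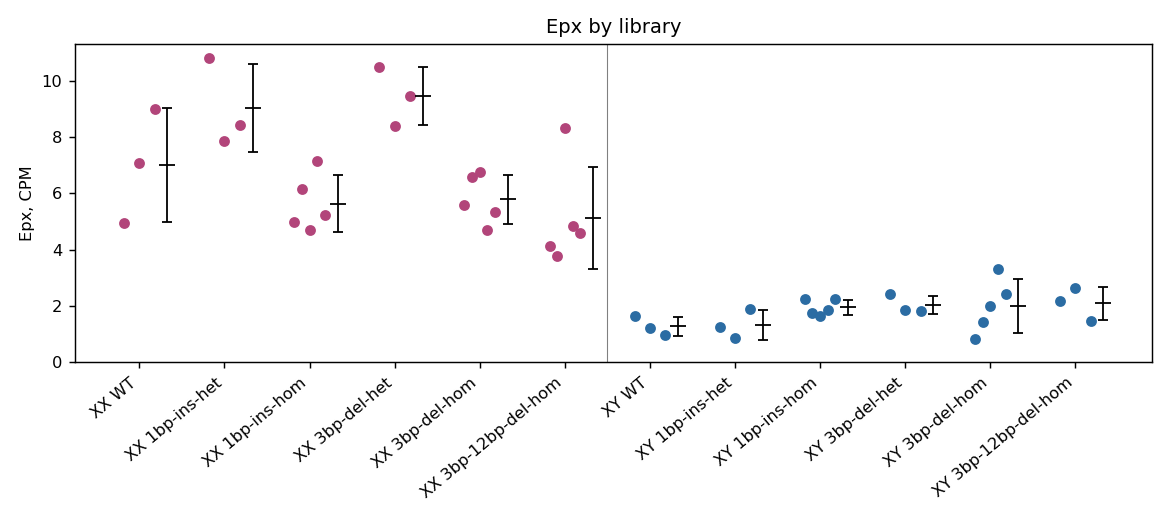
Epx in CPM (y axis) in each of the 46 libraries, by sex and genotype (x axis). Points are libraries and bars the mean and SD. All XX libraries lie above 3.7 CPM and all XY libraries below 3.4 CPM.

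Summed over 15 other granulocyte and mast cell genes, XX lay above XY in both hets, at 21.11 to 61.7 against 4.933 to 17.29 CPM in 1bp-ins-het and at 22.56 to 71.57 against 6.023 to 11.94 CPM in 3bp-del-het. In WT that sum overlapped, at 27.54 to 28.45 CPM in XX and 19.7 to 37.76 CPM in XY. It overlapped in the homozygotes too, at 9.935 to 75.4 CPM in XX and 1.765 to 49.86 CPM in XY in 1bp-ins-hom. In 3bp-del-hom the ranges were 7.038 to 108 CPM in XX and 3.2 to 11.04 CPM in XY. In 3bp-12bp-del-hom they were 9.093 to 254.1 CPM in XX and 3.932 to 30.65 CPM in XY. Prg2 and Prg3, which encode major basic proteins of eosinophil granules, had group means of 0.0597 to 1.24 CPM and of 0 to 0.189 CPM, and neither was called in any comparison of the sexes. Mpo, the peroxidase of neutrophils and their precursors, overlapped between the sexes, with 1.83 to 59.1 CPM in XX and 0.954 to 17.2 CPM in XY libraries. In XX 3bp-12bp-del-hom it was at 4.79, 1.83, 59.1, 11.3 and 2.38 CPM, and the library with 59.1 CPM also had 254 CPM over the 15 other granulocyte and mast cell genes, against 9.1 CPM in the lowest of that group. In XY 1bp-ins-hom it was at 17.2, 2.38, 1.89, 11.8 and 0.954 CPM. Mpo was called in 1 comparison, XY against XX in 1bp-ins-het, with 11.8, 5.85 and 15.1 CPM in XX and 1.56, 3.99 and 2.21 CPM in XY (-2.09 ± 0.45, adjusted p = 0.0105). That call was lost in 3 of 12 alternative settings.

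The second question was what each Enh13 change does to these genes in XX gonads, where Sox9 was higher in all homozygous libraries than in WT. All comparisons below share the XX WT libraries. Against XX WT, 5 of 29 members fell in 1bp-ins-hom, 7 of 29 in 3bp-del-hom and 7 of 29 in 3bp-12bp-del-hom, and none rose. The background was high: 32.3%, 44.8% and 25.6% of all genes were called, and 15.1%, 23.1% and 11% fell. Set against these, the share of members called (17.2%, 24.1% and 24.1%) was close to the share of all genes that fell in the first and second genotype. Member medians were -0.53, -0.37 and -0.38, against 0.00, -0.03 and 0.00 over all genes.

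Adgre1, Mrc1 and Stab1 were called in all 3 homozygous XX genotypes. Stab1 was at 78.1, 65.9 and 58.4 CPM in XX WT, 40.1, 22.6, 22.7, 43.1 and 22.6 CPM in XX 1bp-ins-hom, 24.5, 27.9, 20.4, 35.8 and 28.0 CPM in XX 3bp-del-hom and 43.9, 37.4, 37.8, 38.7 and 46.4 CPM in XX 3bp-12bp-del-hom. Every WT library lay above every library of the 3 mutants. Groups without overlap were common here: 37.3%, 44.7% and 29.8% of all genes, against 5, 6 and 6 of 29 members. The mutant lay wholly below WT in 19.2%, 22.8% and 14.7% of all genes. Lack of overlap alone thus does not set a member apart. The Stab1 changes were -1.14 ± 0.26 (adjusted p = 0.013), -1.31 ± 0.17 (0.000358) and -0.71 ± 0.10 (0.00163). Stab1 was also the 1 member of 30 that fell in XX 3bp-del-het (32.95, 40.6 and 47.3 CPM, -0.77 ± 0.15, adjusted p = 0.0243), where 10.9% of all genes were called and 6.15% fell, and that call was lost in 8 of 13 alternative settings.

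Adgre1 was at 4.11, 3.10, 3.90, 5.99 and 2.77 CPM in XX 1bp-ins-hom, 2.70, 4.78, 2.92, 5.04 and 4.71 CPM in XX 3bp-del-hom and 6.12, 4.36, 5.26, 6.17 and 5.99 CPM in XX 3bp-12bp-del-hom. All of these lay below the lowest XX WT library at 6.60 CPM, and the changes were -1.11 ± 0.27, -1.11 ± 0.26 and -0.62 ± 0.20 (adjusted p = 0.0147, 0.00579 and 0.0395). Mrc1 was at 10.3, 10.7, 9.68, 18.1 and 8.07 CPM in XX 1bp-ins-hom and at 9.59, 9.88, 8.77, 17.5 and 10.9 CPM in XX 3bp-del-hom, and in each 1 library, replicate 4, lay within the range of XX WT. In XX 3bp-del-hom that library is the one high in mesonephros genes. In XX 3bp-12bp-del-hom Mrc1 was at 13.1, 10.5, 14.8, 12.6 and 13.2 CPM, below all WT libraries. Its changes were -0.72 ± 0.24, -0.75 ± 0.21 and -0.55 ± 0.11 (adjusted p = 0.0459, 0.018 and 0.00622). The Mrc1 call in 1bp-ins-hom was lost in 10 of 15 alternative settings and that in 3bp-del-hom in 3, and the Adgre1 call in 3bp-12bp-del-hom was lost in 9.

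Csf1r fell in 3bp-del-hom, at 9.13 to 18.6 CPM (median 13.4) against 32.95, 23.0 and 24.8 CPM in XX WT (log2 fold change -1.0 ± 0.20 (SE), adjusted p = 0.00418), and in 3bp-12bp-del-hom, at 18.5, 15.7, 21.1, 18.1 and 20.1 CPM (log2 fold change -0.51 ± 0.13 (SE), adjusted p = 0.017). Neither group overlapped with XX WT. In 1bp-ins-hom, at 16.9, 17.97, 13.1, 26.3 and 11.7 CPM, it overlapped with WT and was not called (-0.63, adjusted p = 0.0982). Its ligand gene Csf1 was not called in any XX mutant (-0.04 to -0.54), with 10.2, 7.73 and 6.09 CPM in XX WT and 4.91, 5.31, 4.44, 7.88 and 4.58 CPM in XX 1bp-ins-hom. Mpeg1 and the integrin gene Itgam fell in 1bp-ins-hom (-0.71 and -0.87) and in 3bp-del-hom (-0.90 and -0.78), and Ptprc fell in 3bp-del-hom (-0.85). The Mpeg1 and Itgam calls in 1bp-ins-hom were each lost in 8 of 15 alternative settings, and that of Itgam in 3bp-del-hom in 6. In 3bp-12bp-del-hom, Cx3cr1 fell from 14.8, 11.3 and 12.53 CPM to 8.23, 7.05, 9.70, 9.07 and 10.9 CPM, without overlap (-0.50), and C1qb fell by 0.54 on the log2 scale. Of 15 alternative settings the C1qb call was lost in 10, that of Cx3cr1 in 6 and that of Csf1r in 3bp-12bp-del-hom in 4. Lyve1, a hyaluronan receptor of tissue-resident macrophages and lymphatic vessels, fell there from 1.99, 1.07 and 0.684 CPM to 0.866, 0.385, 0.294, 0.174 and 0.382 CPM (-1.55 ± 0.48, adjusted p = 0.0389), with overlapping groups, and that call was lost in 9 of 15 alternative settings.

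**Figure D4:**
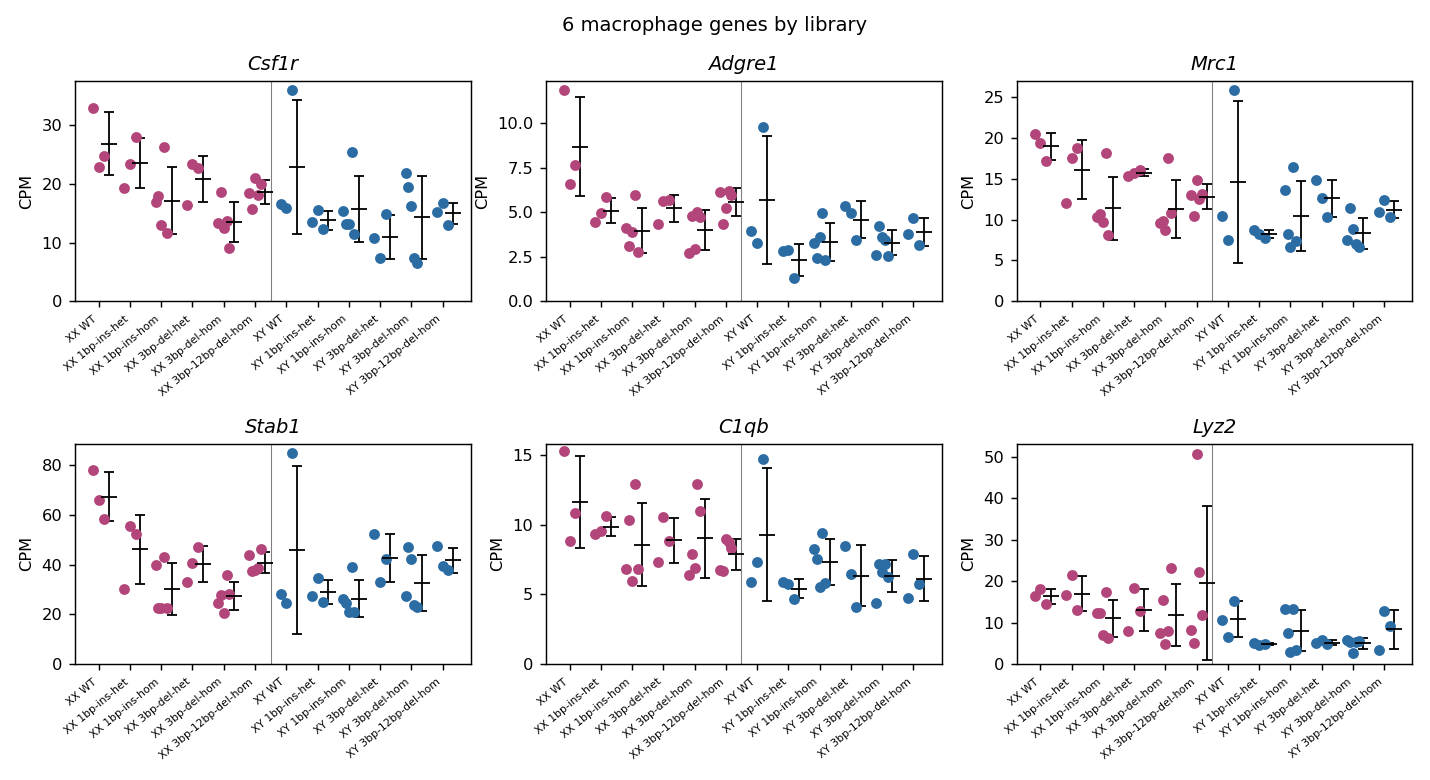
Csf1r, Adgre1, Mrc1, Stab1, C1qb and Lyz2 in CPM (y axes) in each of the 46 libraries, by sex and genotype (x axes). Points are libraries and bars the mean and SD. Stab1 in XX WT (58.4 to 78.1 CPM) lies above every other XX library, and XY WT replicate 3 is the highest XY library in all 6 genes.

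Other members did not pass in these groups. The 5 Fc receptor and adaptor genes had 0 calls in any XX homozygote by edgeR, with list medians of -0.42, -0.01 and -0.38. C1qa was at 9.53, 6.07 and 8.58 CPM in XX WT, 6.26, 7.63, 3.67, 9.44 and 5.66 CPM in XX 1bp-ins-hom, 5.78, 7.01, 6.90, 10.4 and 7.77 CPM in XX 3bp-del-hom and 5.83, 3.97, 5.61, 7.42 and 6.96 CPM in XX 3bp-12bp-del-hom, and the groups overlapped. Its differences were -0.28, -0.09 and -0.42. Cx3cr1 was at 6.51, 9.47, 6.38, 12.9 and 5.74 CPM in XX 1bp-ins-hom and at 7.10, 8.80, 7.38, 15.0 and 10.3 CPM in XX 3bp-del-hom, overlapping XX WT. Pf4 was at 12.8, 10.2 and 11.6 CPM in XX WT and at 6.93, 10.3, 8.52, 12.6 and 17.8 CPM in XX 3bp-del-hom, a difference of -0.04. Timd4, at 0.155, 0.429 and 0.218 CPM in XX WT, did not pass the count filter in any of the 3 comparisons, nor did Cd163.

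The members that fell were mostly those with long transcripts. In 3bp-del-hom the 9 core genes with transcripts longer than the core median had a median of -0.75 and 5 were called, whereas the 9 shorter ones had a median of -0.09 and 0 were called by edgeR. In 1bp-ins-hom the medians were -0.63 and -0.42 with 3 and 0 called, and in 3bp-12bp-del-hom -0.42 and -0.37 with 4 and 1 called. The same held across all genes, split at the same length: in 3bp-del-hom 29.5% of longer genes fell against 4.12% of shorter ones, with medians of -0.11 and 0.24. In 1bp-ins-hom the shares were 19.5% and 2.32%, and in 3bp-12bp-del-hom 13.3% and 4.11%. With the trend over length removed, 2 members (Adgre1 and Stab1) stayed called in 1bp-ins-hom and 4 (Csf1r, Adgre1, Stab1 and Mpeg1) in 3bp-del-hom, and 8 were called in 3bp-12bp-del-hom, with 21.4%, 35.1% and 25.2% of all genes called. The member medians were then -0.57 in 1bp-ins-hom and -0.39 in 3bp-del-hom, and in both all 29 members tested lay below 0. In 3bp-12bp-del-hom the median was -0.42 and 25 of 29 lay below 0. Most members moved together, so these are not counts of separate results, and the share of all genes below 0 in this setting is not given here. What made fold changes go with length was not tested.

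**Figure D5:**
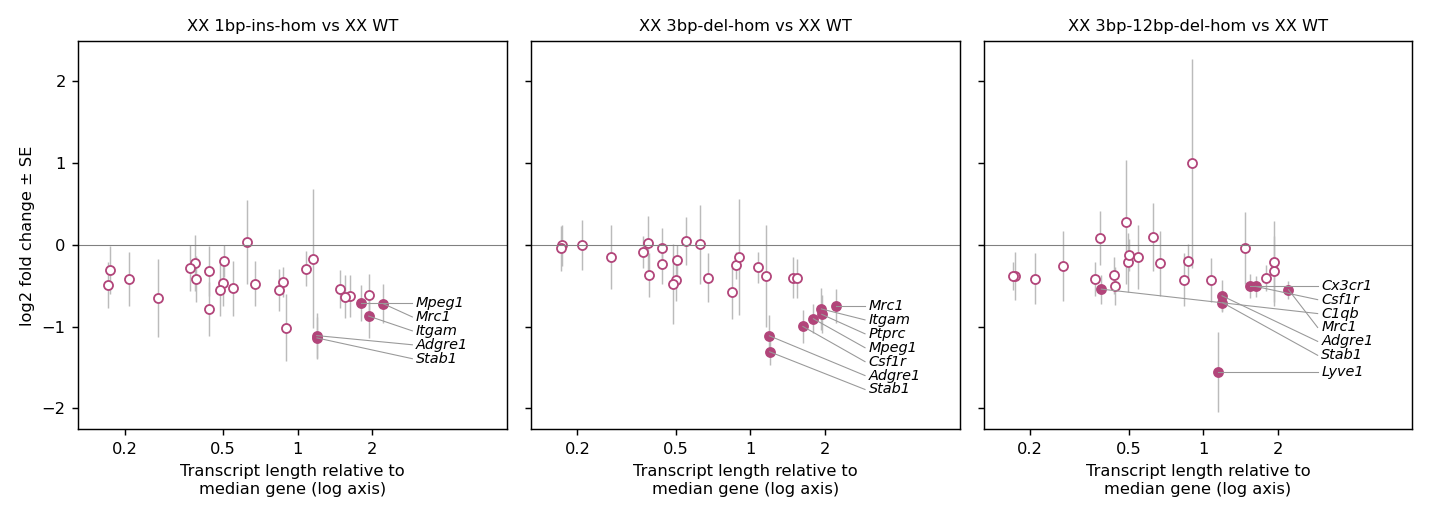
Log2 fold change ± SE against XX WT (y axis) of the members tested in each homozygous XX genotype (3 panels), by transcript length relative to the median gene (x axis, log scale). Filled points are genes called at an adjusted p under 0.05 and are named, and open points were not called. In 3bp-del-hom all 7 called genes have transcripts longer than the median gene.

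Replicate 1 of XX WT was the highest library of its group in the core sum (198 CPM, against 142 and 148), as it was in adrenal genes. Without it, 0 of 30 members were called in 1bp-ins-hom by edgeR, 7 of 30 in 3bp-del-hom (Csf1r, Ptprc, Adgre1, Itgam, Stab1, Mpeg1 and Epx) and 2 of 29 in 3bp-12bp-del-hom (Mrc1 and Stab1), where 23.3%, 39.3% and 19.4% of all genes were called. With all 12 groups in 1 fit the counts were 5, 5 and 0, with 36.0%, 39.5% and 21.1% of all genes called. The Csf1r, Adgre1, Stab1 and Mpeg1 calls in 3bp-del-hom held in all 15 alternative settings. Endothelial genes moved beside them: 7, 9 and 0 of 14 fell in the 3 genotypes, among them Kdr (-0.51 and -0.63) and Tek (-0.40 and -0.68), named after their values were seen, in the first and second, and Stab1 and Lyve1 are expressed by endothelium too. The summed level of 8 megakaryocyte and platelet genes was 84.76 to 105.6 CPM in XX WT, 49.26 to 80.31 in 1bp-ins-hom, 40.97 to 77.62 in 3bp-del-hom and 63.02 to 92.08 in 3bp-12bp-del-hom. That of 7 mesonephros genes was 45.85 to 67.41 CPM in XX WT, 18.9 to 38.11 in 1bp-ins-hom, 23.7 to 121.8 in 3bp-del-hom and 17.39 to 31.92 in 3bp-12bp-del-hom. That of 13 lymphoid genes was 4.054 to 4.353 CPM in XX WT, 2.267 to 3.231, 1.889 to 2.926 and 2.367 to 4.328 in the same order. Both 1bp-ins-hom and 3bp-del-hom thus lay below XX WT in platelet and lymphoid genes. The part of these lists in the changes was not tested.

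In XX 1bp-ins-het no member was called against XX WT and 0% of all genes were, with 1 member at an unadjusted p under 0.05 and 0 members called by DESeq2, which gave an adjusted p for 1 member. Against the het of the same mutation, XX 1bp-ins-hom differed in 1 of 29 members (Epx) and XX 3bp-del-hom in 2 of 30 (Epx and Mpeg1, -0.59 ± 0.16, adjusted p = 0.0192), where 17.3% and 27.1% of all genes were called, 8.76% and 13.1% lower. The Mpeg1 call was lost in 4 of 15 alternative settings.

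In XY gonads no member was called against XY WT in any of the 5 mutant groups by edgeR, where 0% of all genes were called in 4 of them and 0.013% in 3bp-12bp-del-hom. At an unadjusted p under 0.05 there were 11 members in 1bp-ins-het, 2 in 1bp-ins-hom, 2 in 3bp-del-het, 7 in 3bp-del-hom and 3 in 3bp-12bp-del-hom, and DESeq2 called 0 in each. The share of all genes at that unadjusted cut is not given here, so these counts have no background and are not read as differences. The 5 comparisons share XY WT, whose replicate 3 was high. Most members lay below 0, with medians of -0.80, -0.35, -0.44, -0.50 and -0.58, against -0.014 to 0.001 over all genes. Without replicate 3 of XY WT the medians were -0.32, 0.14, -0.06, -0.03 and -0.13, and still no member was called by edgeR. Adgre1 was at 2.61, 4.25, 3.60, 3.44 and 2.56 CPM in XY 3bp-del-hom, around the 2 lower XY WT libraries. Csf1r in the same group was at 22.0, 19.6, 16.2, 7.31 and 6.54 CPM, with libraries both above and below the 2 lower XY WT libraries.

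Between XY 1bp-ins-hom and XY 1bp-ins-het, 1 of 29 members rose, Pf4, where 12.6% of all genes were called, 4.96% higher and 7.6% lower. It was at 7.42, 6.94 and 4.71 CPM in the hets and at 14.2, 12.2, 8.91, 15.5 and 9.13 CPM in the homozygotes, without overlap (log2 fold change 0.93 ± 0.22 (SE), adjusted p = 0.0229). Of all genes 22.4% did not overlap, and 2 of 29 members. The Pf4 call was lost in 4 of 14 alternative settings. Platelet genes moved beside it, since Ppbp (0.99), Gp9 (1.04) and Treml1 (0.86) rose in the same comparison, and their part in the Pf4 difference was not tested. Of 29 members 28 lay above 0, with a median of 0.50. Over all genes the median was 0.02 and 46.6% lay below 0. Most members moved together from library to library, so 28 is not a count of separate results. Between XY 3bp-del-hom and XY 3bp-del-het 0 members and 0% of all genes were called by edgeR, 1 member had an unadjusted p under 0.05 and DESeq2 called 1 (Mrc1).

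The last question was whether a homozygous change acts on these genes differently in XX and XY. The interaction called no member in 1bp-ins-hom (1.04% of all genes called), 3bp-del-hom (3.83%) or 3bp-12bp-del-hom (0.597%) by edgeR. At an unadjusted p under 0.05 there were 2, 0 and 1 members, with no share of all genes at that cut to set beside them, and DESeq2 called 0 in each. Stab1 had -0.31 ± 0.53, -0.77 ± 0.51 and -0.53 ± 0.47, and Csf1r -0.07 ± 0.47, -0.28 ± 0.56 and 0.13 ± 0.36. Intervals of that width do not show that the sexes respond alike. Without replicate 3 of XY WT, Stab1 and Mpeg1 were called in 3bp-del-hom and Stab1 and Mrc1 in 3bp-12bp-del-hom, all with a negative difference (XX effect minus XY effect). Of all genes 22.9% and 17.9% were then called.

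Other genes of the growth factor axis bear on the same cells. Il34, which encodes the second ligand of Csf1r, was lower in XY than in XX in 1bp-ins-het (-1.70 ± 0.31, adjusted p = 0.00203) and in 3bp-del-het (-1.58 ± 0.30, adjusted p = 0.00489), with group means of 1.91 and 1.86 CPM in XX and 0.585 and 0.614 CPM in XY. Both calls held in all alternative settings run. In WT the means were 2.16 CPM in XX and 0.879 CPM in XY and the gene was not called, and in XX 3bp-12bp-del-hom it fell by 0.83 on the log2 scale, a call lost in 8 of 15 settings. The receptor gene Csf2rb fell in XX 3bp-del-hom (-0.96, lost in 5 of 15 settings) and was the 1 gene of 4 tested on this list that was called there. Of the other macrophage genes 8 of 38 fell and 2 rose in XX 1bp-ins-hom, 9 of 38 fell and 1 rose in XX 3bp-del-hom, and 4 of 38 fell in XX 3bp-12bp-del-hom. Those shares lay near the 15.1%, 23.1% and 11% of all genes that fell.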

How the data were processed

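RNA from E12.5 gonads (140 ng per library, poly(A) selected, per the labels' protocols) was sequenced as 46 libraries. The authors deposited a table of estimated counts per gene, in which 8.0 to 8.9% of values are not whole, and a table of TPM values with column totals of 923510 to 945851. Reads were placed on mm10, as the submitters' processing notes list it. For the aligner, counting tool, annotation and strand setting: not given in the sources used here. Each table holds 1 further column, an XX 3bp-del-hom replicate 6, which matches no sample and was not used.

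Expected counts as deposited were rounded and tested in R 4.3.3 with edgeR 4.0.16 (TMM, filterByExpr on the groups compared, robust quasi-likelihood fit), with p-values adjusted by Benjamini-Hochberg over all genes tested and calls at 0.05. Each SE was derived from the log2 fold change and its F statistic. CPM values use TMM factors over all libraries, and log2 CPM a prior count of 2. Alternatives were RLE factors, DESeq2 1.42.0, no filter, all 12 groups in 1 fit, a replicate block, removal of a lowess trend over gene length and leaving out each library. Leaving out the 4 libraries over 100 CPM of mesonephros or 50 CPM of adrenal genes, and the comparisons of the sexes within homozygotes, were added after values had been seen. The members and lists were chosen with earlier results of these data known. All 31 members could be named, with values by library for those in a list written with the design. Outside the set, the 8 genes most like the core and the largest called genes of each list were named. No pair of libraries agreed within sampling noise (lowest chi-square per degree of freedom 13.28 over 71 pairs within groups). The fit was tested on simulated data.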

Additional observations from a re-analysis of the deposited data

Results flagged for a closer look

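In groups of 4 to 10 libraries, 13 of 155 checks found 1 library set apart from its group by a large gap. Chance gives about 1 in 20 for separate checks. These were not separate, since most members moved together and 1 library could be found several times, so no excess is read from the count. Of the 13, 7 were in XY 3bp-del-hom. Its replicate 1 was the lowest in Spi1 (1.32 CPM, others 1.68 to 1.83), Laptm5 (11.01, others 15.06 to 17.03), Aif1 (0.392, others 0.569 to 0.636) and C1qb (4.4, others 6.26 to 7.17). The same library was the highest of its group in Csf1r (22.0 CPM, others 6.54 to 19.6) and Csf1 (10.03, others 3.34 to 5.21). It was also the highest in Fcgr3 (6.84 CPM, others 2.05 to 3.48). In the same group Ptprc was low in replicate 5 (0.617 CPM, others 1.29 to 1.70), Lyz2 was low in replicate 3 (2.65, others 5.27 to 5.77) and Mpo was high in replicate 4 (9.11, others 2.94 to 3.49).

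In XX 3bp-12bp-del-hom, Csf1 was high in replicate 1 (16.4 CPM, others 4.67 to 6.49), Aif1 low in replicate 2 (0.385, others 1.07 to 1.23) and Pf4 high in replicate 3 (12.3, others 7.13 to 8.09). Cd163 was at 0.0577 CPM in replicate 1 and 0 in the others, below the level of 3 counts. Cd14 was low in XX 3bp-del-hom replicate 3 (0.180 CPM, others 0.386 to 0.491), and Mpeg1 in XX 1bp-ins-hom replicate 3 (4.44, others 7.886 to 9.499).

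Under 1bp-ins-hom every XX library was below the XX WT mean in Pf4 and every XY library above the XY WT mean, by -0.585 and 0.601 on average on the log2 scale, although single libraries of mutant and WT overlapped in both sexes. That observation is not a test. The fitted interaction was -1.10 ± 0.38 with an adjusted p of 0.25 (edgeR).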

How the results depend on the processing

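Counts below are members called by edgeR unless DESeq2 is named. The share of all genes called moved with the setting too. For the sexes in WT it went from 11% to 43.3% without XY WT replicate 3. A changed count of members is thus not by itself a change particular to them. Leaving out 1 library at a time gave 1 to 17 calls for XY against XX in WT, 21 to 29 in 1bp-ins-het, 2 to 6 in 3bp-del-het, 1 to 1 in 1bp-ins-hom, 3 to 9 in 3bp-del-hom and 0 to 3 in 3bp-12bp-del-hom. Against XX WT it gave 0 to 0 in 1bp-ins-het, 0 to 12 in 1bp-ins-hom, 0 to 1 in 3bp-del-het, 5 to 8 in 3bp-del-hom and 2 to 9 in 3bp-12bp-del-hom, and 0 to 0 in all XY mutants. For homozygote against het it gave 0 to 8 and 1 to 4 in XX and 0 to 4 and 0 to 0 in XY (1bp-ins, 3bp-del), and for the interactions 0 to 0, 0 to 2 and 0 to 2.

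DESeq2 called 8 members in XX 1bp-ins-hom, 3 in XX 3bp-del-het, 2 and 4 for homozygote against het in XX, 3 and 1 in XY, and 10 and 4 for the sexes in 3bp-del-hom and 3bp-12bp-del-hom. Of all genes it called 36.6% in XX 1bp-ins-hom and 17.1% in XX 3bp-del-het. All 12 groups in 1 fit gave 2 for the sexes in 3bp-del-het, 1 in 3bp-12bp-del-hom, and 0 in XX 3bp-del-het, in XX 3bp-12bp-del-hom and for XX and XY 1bp-ins and XX 3bp-del homozygote against het. Length correction gave 2 in XX 1bp-ins-hom, 0 in XX 3bp-del-het, 4 in XX 3bp-del-hom and 0 for XY 1bp-ins homozygote against het. In the 3 XX comparisons it called 21.4%, 2.85% and 35.1% of all genes. Without the 4 libraries high in neighbouring tissue the counts were 15 for the sexes in WT, 0, 0 and 2 in XX 1bp-ins-hom, XX 3bp-del-het and XX 3bp-12bp-del-hom, 4 for XX 3bp-del homozygote against het, and 2 and 2 for the 3bp-del and 3bp-12bp-del interactions.

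Same-numbered replicates were not taken as pairs: in none of 20 comparisons did every such pair correlate over 0.1 (r from -0.315 to 0.506). That rule cannot exclude litters or batches shared by some of them. In XX 1bp-ins-hom the core sums of replicates 1 to 5 were 107, 118, 82.15, 160 and 82.5 CPM. Those of XY 1bp-ins-hom were 117, 96.6, 76.5, 154 and 76.2 CPM, and what the numbers share was not tested. The replicate block gave 10 in XX 1bp-ins-hom, 0 in XX 3bp-del-het, 13 in XX 3bp-del-hom, 2 in XX 3bp-12bp-del-hom, 5 and 6 for homozygote against het in XX, and 2 and 0 for the sexes in 1bp-ins-hom and 3bp-12bp-del-hom.

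Direction changed for Csf1 between the sexes in WT without XX WT replicate 1 (0.118), XY WT replicate 1 (0.226) or XY WT replicate 2 (0.18), against -0.962 without XY WT replicate 3, and for Mrc1 in the 3bp-12bp-del-hom interaction without XY WT replicate 1 (0.0579) or 2 (0.179), against -0.858 without replicate 3. The causes were not tested. Members with few counts, such as Cd163 and Timd4, are limited by depth.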

Other observations

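H2-Aa, a class II histocompatibility chain gene, moved in the opposite direction to most members. It had a mean of 0.166 CPM in XX WT and of 2.37, 1.69 and 2.04 CPM in XX 1bp-ins-hom, 3bp-del-hom and 3bp-12bp-del-hom, and rose in all 3 (log2 fold changes 3.83, 3.31 and 3.60, edgeR). H2-Aa was higher in XY than in XX in WT and both hets (5.13, 5.01 and 4.64). It was 1 of 9 genes on the antigen presentation and monocyte list. The mean sum of that list was 5.48 CPM in XX WT and 11.3 CPM in XY WT. In the 3 homozygous XX groups it was 8.45, 7.73 and 8.46 CPM. The other genes of the list are not described here, so a change of class II genes as a set is not shown.

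Rag1, the lymphocyte recombinase gene, was lower in XY in the same comparisons (-2.72, -2.98 and -2.49) and fell in the 3 homozygous XX groups (-1.35, -1.83 and -1.18), though the first of these calls was lost in 7 of 15 alternative settings and the last in 3. Il10ra, an interleukin receptor gene of leukocytes, was lower in XY too (-1.17, -1.27 and -1.22) and fell in XX 1bp-ins-hom and XX 3bp-del-hom (-0.85 in each).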
